A study of Mus musculus with 9 samples.

Results

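The genes described are the nuclear-encoded subunits of respiratory complexes II to V, with cytochrome c, in the apical ventricle of newborn CD-1 mice. They were chosen by symbol (Sdha to Sdhd, names beginning Uqcr, Cox4 to Cox8 or Atp5, and Cyc1 and Cycs, without pseudogene names). Of 50 such symbols in the authors' gene table, 48 were rows of the expression matrix, out of 14479 genes in all. The 48 members were 4 of complex II, 9 of complex III with Cyc1, cytochrome c itself (Cycs), 17 of complex IV and 17 of complex V. A mean of at least 1 FPKM (fragments normalised to transcript length and library size) over the 9 libraries was required for testing, which 47 members met. The remaining member, the testis isoform Cox7b2, was listed at 0 in sham libraries 1 and 3 and reached 2.11 FPKM at most. A symbol is not always a subunit: Atp5sl is named Dmac2 in GENCODE and is known as a complex I assembly factor, Cox7a2l takes part in supercomplex assembly, and Atp5s is coupling factor B.

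RNA was sequenced in 9 libraries of 3 groups with 3 libraries each. Pups of the first group had sham surgery, those of the second had the tip of the ventricle cut away (apical resection), and those of the third had the same resection together with vagotomy, the cutting of the vagus nerve, which carries the parasympathetic supply of the heart. All pups were operated on at postnatal day 1, and the bottom of the ventricle was collected at postnatal day 2. The labels give no genotype beyond the strain, no sex, no litter and no statement that a library was 1 pup, so the p-values below measure only the spread between these libraries, which may be technical. There was no group with vagotomy and no resection, so the vagotomy group is compared with resection alone and with sham.

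Complex II (succinate dehydrogenase) passes electrons from succinate to ubiquinone, complex III passes them from ubiquinol to cytochrome c, and complex IV (cytochrome c oxidase) passes them on to oxygen. Complexes III and IV pump protons, and complex V (ATP synthase) uses the proton gradient to make ATP, the main supply of energy for contraction in the heart. Each complex is built from many small subunits in fixed proportion, some of which have a ubiquitous form and a form made mainly in heart and skeletal muscle. Their promoters are known for binding sites of NRF1, of ETS family factors such as GABP, of YY1 and of the ERR receptors, regulators of mitochondrial biogenesis.

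These regulators are why 3 promoters are shown, each the 250 bases before the RefSeq start of transcription (GRCm38.p6, mouse, 5′ to 3′ on the gene's strand). Among the members, Cox6b1 had the largest rise that passed the test and Cox7a1 the largest fall, and Cycs rose and holds an NRF1 match. They lie at chr7:30626115-30626364 on the minus strand, chr7:30183921-30184170 on the plus strand and chr6:50566570-50566819 on the minus strand. Capitals mark matches on either strand to NRF1 (GCGCANGCG), ETS (CCGGAAG), YY1 (AANATGGCG) or ERR (TNAAGGTCA).
Cox6b1: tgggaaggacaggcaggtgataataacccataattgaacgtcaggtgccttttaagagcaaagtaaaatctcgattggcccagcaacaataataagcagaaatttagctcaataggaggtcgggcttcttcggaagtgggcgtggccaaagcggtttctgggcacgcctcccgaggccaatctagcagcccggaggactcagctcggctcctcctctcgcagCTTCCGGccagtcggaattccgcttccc
Cox7a1: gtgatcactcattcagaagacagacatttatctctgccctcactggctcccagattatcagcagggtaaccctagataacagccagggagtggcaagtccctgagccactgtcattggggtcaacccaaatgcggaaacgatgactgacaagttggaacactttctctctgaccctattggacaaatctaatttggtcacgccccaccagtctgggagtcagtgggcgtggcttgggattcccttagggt
Cycs: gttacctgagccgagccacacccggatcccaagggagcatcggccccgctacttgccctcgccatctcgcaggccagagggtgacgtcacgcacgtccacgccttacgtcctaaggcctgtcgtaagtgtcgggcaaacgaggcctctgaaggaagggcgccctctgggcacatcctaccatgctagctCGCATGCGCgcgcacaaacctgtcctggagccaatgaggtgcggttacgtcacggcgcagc
The Cox6b1 window held 1 ETS match, the Cycs window 1 NRF1 match, and the Cox7a1 window no match to these 4 motifs. A RefSeq promoter was found for 38 of the 48 members by symbol or synonym (all but Atp5a1, Cox4i1, Cox4i2, Cox6a2, Cox6c, Cyc1, Sdhc, Uqcrb, Uqcrc2 and Uqcrq). The NRF1 motif was in 8 of them (21.1%, against 5.33% of all 27025 promoters of the same length), the ETS motif in 8 (21.1% against 7.05%), the ERR motif in 1 (2.63% against 1.14%) and the YY1 motif in 0 (against 1.12%). The NRF1 matches were in Sdha, Sdhd, Cox6a1, Atp5g2, Atp5h, Atp5k, Atp5l and Cycs. TATAAA was in 2 members (5.26% against 13.0%) and CCAAT in 22 (57.9% against 34.5%). These are matches of letters in a window, with no binding measured. For members the RefSeq start nearest to the GENCODE 5′ end of the gene was used, and for the set of all promoters the first start listed. The start used lay 1305 bases from that end for Atp5g2, 2997 for Cox7a2l and 3643 for Atp5d.

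The members were among the most abundant transcripts of the tissue. Their median level over the 9 libraries was 352 FPKM, against 8.44 FPKM for all listed genes, and 41 of the 48 had a mean of at least 100 FPKM, a level that 700 genes reached. Atp5g3, which encodes the proton-carrying c subunit of ATP synthase, was the highest at 4456 FPKM and ranked 20 of all listed genes. Atp5b, the catalytic beta subunit, followed at 3595 FPKM. In the sham libraries Atp5g3 had 7666, 5498 and 4944 FPKM and Atp5b had 3253, 3953 and 3630 FPKM, so the ranges of these neighbours did not overlap. Cox6b1, an intermembrane-space subunit of complex IV, came next over all libraries at 1923 FPKM. The 5 members under 30 FPKM were Cox4i2, Cox6b2, Cox7b2, Atp5s and Atp5sl. FPKM is a level per length and can be compared between genes, as here, but the number of reads behind it is unknown.

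Libraries of the series were comparable in overall level, with medians of 7.52 to 8.29 FPKM over all listed genes, and pairs of libraries correlated with r of 0.746 to 0.951 across genes (0.826 to 0.987 across the members), which are not independent replicates. They differed in a property that was partly aligned with the groups. The deviation of a gene from its mean over all libraries correlated with its GC content across 13118 genes at a Spearman rho of 0.454, -0.506 and -0.620 in the sham libraries, 0.492, -0.581 and -0.305 in the resection libraries and 0.447, 0.197 and 0.255 in the vagotomy libraries. Library 1 of sham and library 1 of resection thus stood on the side of the 3 vagotomy libraries and the other 4 on the opposite side. The vagotomy group lay wholly on the same side, so this property cannot be fully told apart from vagotomy. Counts of calls are therefore also given after correction of each library for GC content and length. No GC-high set held more than 1 sham or 1 resection library, so no comparison within such a set was made. The tissue carried its label: Tnnt2, Myh7 and 4 other cardiomyocyte markers summed to 6097 to 7258 FPKM in sham, 4832 to 8526 in resection and 7700 to 27716 in vagotomy libraries. The remaining cardiomyocyte markers, Myh6 and Actc1, were listed at 0 in all 3 vagotomy libraries and marked in the authors' deposited table as too abundant to quantify. Failed estimates were not confined to the vagotomy group. The mitochondrially encoded mt-Co1 and mt-Ts1 carried the same mark and were listed at 0 in all 3 sham libraries. In the other libraries they had 4063 to 15284 and 14430 to 263383 FPKM, and the part of such genes in the scaling of FPKM was not tested. No member had such a failed estimate.

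Resection against sham asks what the wound changes in the remaining apex. No member passed the threshold of an adjusted p of 0.05 (limma, adjusted over 13249 genes), where 0.294% of all tested genes did. At an unadjusted p under 0.05 there were 2 members, Uqcrfs1 and Atp5e, where 5.89% of all genes had one. The means nevertheless leaned one way: 46 of 47 members had a lower mean of log2(FPKM + 1) after resection, against 51.3% of all genes, and the median log2 change was -0.36, against -0.01 for all genes. Counts of lower means here and below are on this log2 scale. In plain FPKM the mean of Sdhb was also higher after resection (464 against 448 FPKM), beside that of Atp5c1 (1451 against 1402 FPKM). By complex the median log2 change was -0.26 for complex II, -0.39 for complex III, -0.35 for complex IV and -0.40 for complex V. The 36 complex I subunits gave -0.32, with 35 lower.

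The lower means were carried mainly by resection libraries 2 and 3. A member score, the mean log2(FPKM + 1) over the 47 members relative to the sham average, was 0.09, -0.10 and 0.01 in the sham libraries, -0.05, -0.55 and -0.59 in the resection libraries and -0.24, -0.23 and -0.36 in the vagotomy libraries. Resection library 1 lay within the sham range and the other 2 lay below it. In that library 24 of 47 members were below the sham mean, against 42 in each of resection libraries 2 and 3. The median log2 change of the members was -0.58 without resection library 1, -0.30 without library 2 and -0.29 without library 3. Resection library 1 was also the one that shared its GC deviation with sham library 1, and the part of that difference in the result was not tested. After the correction for GC content and length the median was -0.37.

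**Figure D1:**
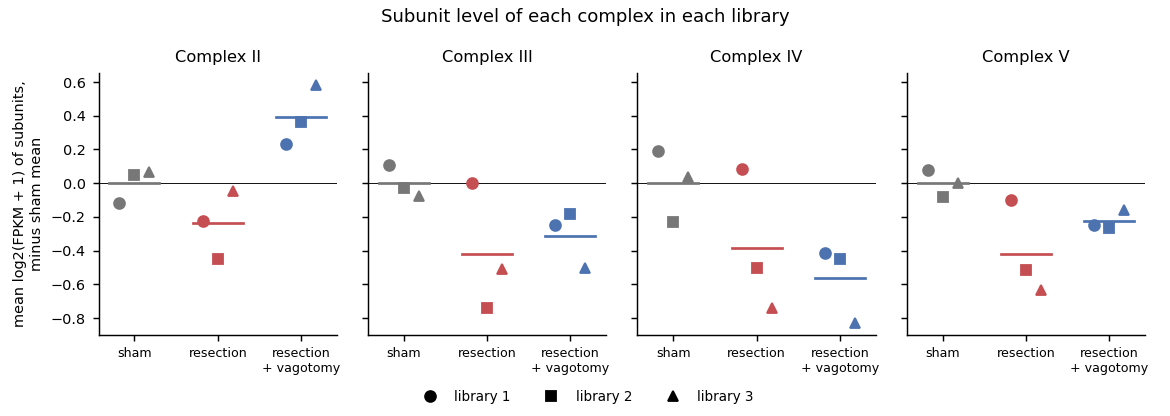
Mean log2(FPKM + 1) of the subunits of each complex in each library, relative to the sham average; symbols are libraries and horizontal lines are group means. Resection library 1 sits near sham in complexes III, IV and V. Complex II is the one whose 3 vagotomy libraries all lie above sham, and of its 4 members only Sdhc passed the threshold.

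Summed macrophage and neutrophil markers were higher in every resection and vagotomy library than in sham. The 7 macrophage markers of 8 listed that were in the matrix summed to 30.4 to 54.0 FPKM in sham, 143 to 270 in resection and 196 to 226 in vagotomy libraries, and 3 of the 6 tested (Itgam, Cd14 and Lyz2) rose after resection. The 3 neutrophil markers of 4 listed summed to 16.6 to 38.5, 176 to 269 and 90.8 to 250 FPKM, and 1 of 3 (S100a8) rose after resection. In the vagotomy group S100a8 fell against resection, from a mean of 165 to 42.8 FPKM (log2 change -1.94 ± 0.39, adjusted p = 0.0344, limma). S100a9 had a higher mean there, 140 against 45.4 FPKM, and did not pass (adjusted p = 0.119, limma). None of these markers was at 0 in a library. All 8 cardiomyocyte markers had a lower mean of log2(FPKM + 1) after resection and 0 passed the threshold, while in plain FPKM the means of Nkx2-5, Tnnt2 and Tnni3 were higher (85.3 and 92.2, 2449 and 2532, and 2098 and 2109 FPKM in sham and resection). Endothelial markers summed to 212 to 308 FPKM in sham and 240 to 295 in resection libraries, and fibroblast markers to 675 to 1179 and 650 to 806. In bulk tissue fewer cells of a type and less RNA per cell cannot be told apart, and the part of incoming cells in the lower member means was not tested.

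After resection, the 3 libraries lay below all 3 sham libraries for 5 members (Sdhd, Uqcrfs1, Atp5e, Atp5j and Atp5o), where 4.45% of all genes showed this, and above them for 0 members (6.36% of all genes). The member with the lowest fitted change, chosen after its values were seen, was Atp5e, the small epsilon subunit of the ATP synthase central stalk. Its level was 1114, 840 and 638 FPKM in sham, 512, 314 and 269 FPKM in resection and 736, 425 and 699 FPKM in vagotomy libraries. Every resection library was below every sham library, and vagotomy libraries 1 and 3 lay in the sham range. The log2 change was -1.26 ± 0.37 (SE) with an adjusted p of 0.356 (limma). Uqcrfs1, the Rieske iron-sulfur protein of complex III, had 523, 485 and 542 FPKM in sham and 373, 357 and 297 FPKM in resection libraries, a log2 change of -0.60 ± 0.26 with an adjusted p of 0.803 (limma). It was also named after its values were seen.

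A different test gave calls for this comparison. In the authors' deposited table of Cuffdiff results, 6 members were lower at a q of 0.05 or less and 0 were higher, where 6.12% of the table's tested genes were called (1.93% lower, 4.18% higher). These were Uqcrc2, Uqcrfs1, Cox7a1, Cox8b, Atp5e and Atp5k. For Atp5e the authors' deposited table gives 879 FPKM in sham and 371 FPKM after resection with a q of 0.00161. For Cox7a1, the heart and muscle form of a small complex IV subunit, the authors' deposited table gives 257 and 143 FPKM with a q of 0.00297. In limma neither passed, and Cox7a1 ranged from 187 to 326 FPKM in sham and from 82.9 to 217 FPKM in resection libraries, so its groups overlapped.

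The comparison of vagotomy with resection against resection asks what vagotomy adds to resection. The labels name no sham vagotomy in the resection group, so loss of vagal supply and the added surgery cannot be told apart. Here 5 of 47 members passed the threshold, 4 of them higher and 1 lower, where 3.52% of all tested genes passed (1.97% higher, 1.55% lower) and 9.14% of the 700 genes at 100 FPKM or more. Sdhc, Cycs, Cox6b1 and Atp5o rose and Cox6c fell. The median log2 change over the members was 0.11, against 0.02 for all genes, while single members ranged from -1.31 to 1.93. It was -0.094 without resection library 3 and -0.051 after the correction for GC content and length, so its sign was not fixed. The interquartile range of 1.20 was above that of all genes (0.83) and close to that of genes at 100 FPKM or more (1.23). The 3 vagotomy libraries lay above all 3 resection libraries for 10 members (14.0% of all genes) and below them for 6 (12.2%). The authors' deposited table called 10 members higher and 8 lower, where 17.1% of the table's tested genes were called (8.52% higher, 8.56% lower), and these 18 included all 5 of the limma calls.

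Against sham, 9 of 47 members passed in the vagotomy group, where 10.1% of all tested genes did (5.81% higher, 4.26% lower) and 17.6% of those at 100 FPKM or more. Sdhc and Cox6b1 rose, and Cyc1, Uqcrc2, Cox6c, Cox7a1, Cox7a2l, Atp5j and Atp5s fell. The median log2 change was -0.42, against 0.03 for all genes. The 3 vagotomy libraries lay above all sham libraries for 7 members (19.7% of all genes) and below them for 14 (17.0%). Of other cell types, erythroid markers summed to 438 to 1353 FPKM in sham, 793 to 4350 in resection and 361 to 653 in vagotomy libraries. Of these only Hba-a2 passed, with a rise against sham from 21.8 to 101 FPKM (log2 change 2.31 ± 0.55, adjusted p = 0.0313, limma). Of the other tested erythroid markers, Hba-a1 (164 FPKM in sham, 67.4 FPKM in vagotomy libraries), Hbb-bs and Hbb-bt had lower means and Alas2 a higher one. Of 5 markers of brown adipocytes, which are rich in mitochondria, 3 were in the matrix (Cidea, Prdm16 and Fabp4) and summed to 274 to 380, 251 to 546 and 376 to 1211 FPKM, with Prdm16 past the threshold against resection. The part of such cells in the members' changes was not tested. The comparisons share libraries (each group of 3 enters a pair of them), so each is given by its own values.

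Both counts depended on single libraries. Against resection, 4 members passed without resection library 1 or sham library 1, 1 without resection library 3 or vagotomy library 2, and 0 without resection library 2, sham library 2, sham library 3, vagotomy library 1 or vagotomy library 3. Against sham, 10 passed without any 1 of the 3 resection libraries, 4 without sham library 1 or vagotomy library 3, 2 without vagotomy library 2, 1 without vagotomy library 1 and 0 without sham library 2 or sham library 3. Counts over all tested genes moved too: against resection 466 became 42 without resection library 2, 93 without sham library 2, 72 without sham library 3, 130 without vagotomy library 1 and 68 without vagotomy library 3. Against sham 1334 became 100 without sham library 2, 119 without sham library 3 and 1701 without resection library 1. After the correction for GC content and length, 9 members passed against resection (6 higher, 3 lower) and 14 against sham (5 higher, 9 lower), and these included all 5 and all 9 of the calls above. The same correction raised the count over all tested genes to 1334 against resection and 2287 against sham. In a fit to only the 6 libraries compared, 0 members passed against resection, 29 genes passed in all, and 10 members passed against sham.

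**Figure D2:**
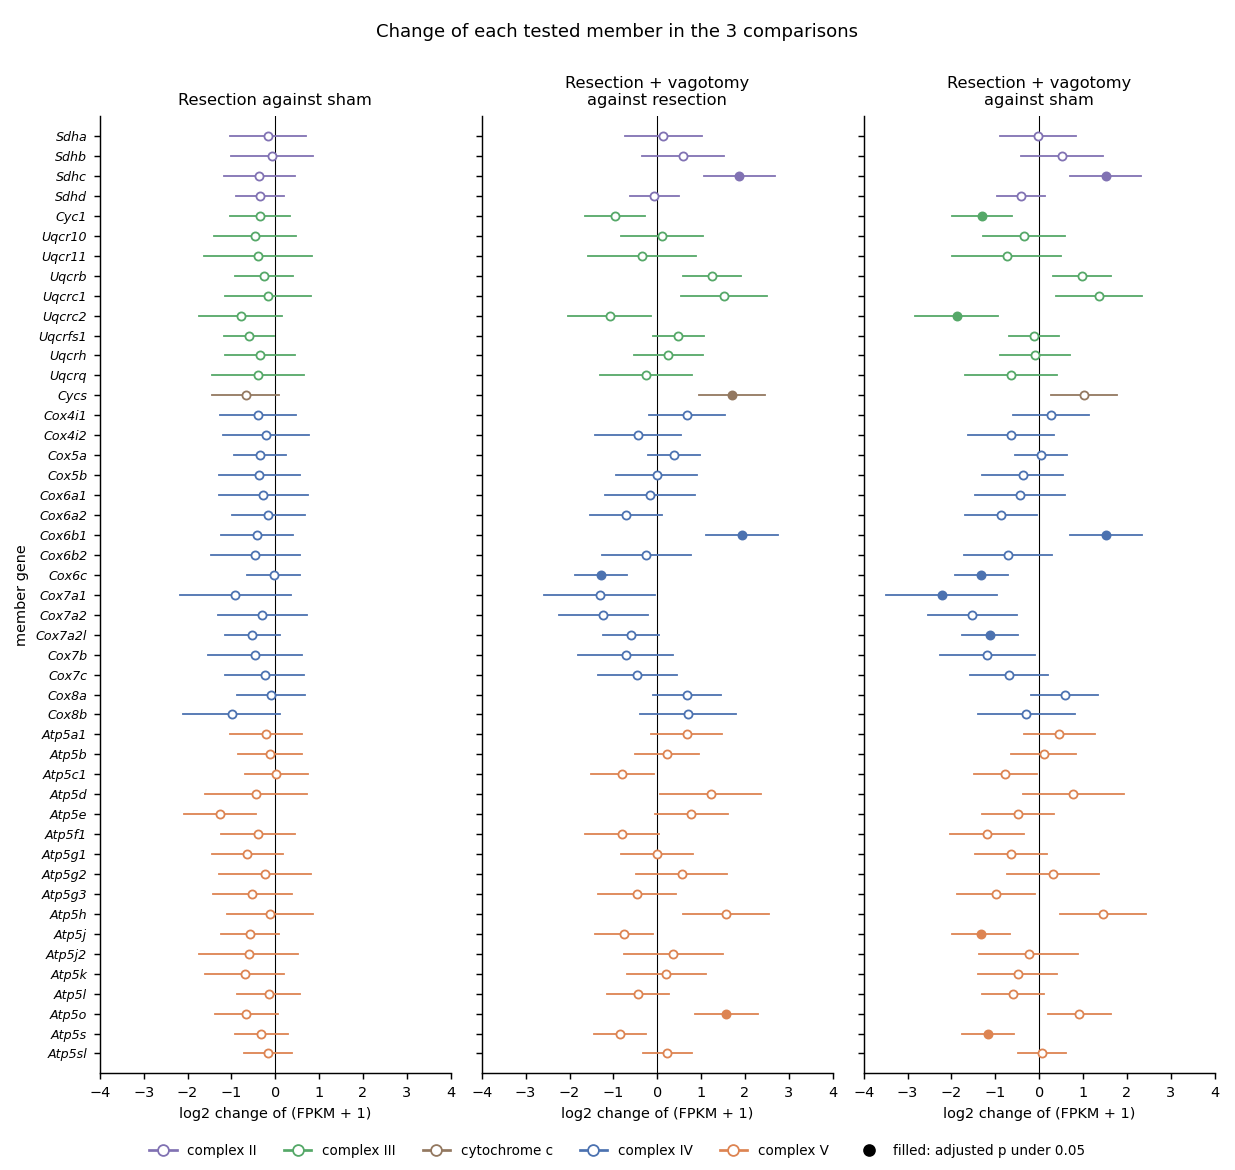
Log2 change of (FPKM + 1) for each of the 47 tested members (points) with its 95% confidence interval (lines), coloured by complex, in the 3 comparisons; filled points have an adjusted p under 0.05. After resection 46 of 47 points lie left of 0, whereas after vagotomy with resection members of the same complex lie on both sides, from -2.23 to 1.52 against sham.

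In complex II, 1 of 4 members rose and the others did not pass. Sdhc, 1 of the 2 membrane anchors that hold the enzyme in the inner membrane (chromosome 1, 171127165 to 171150603, minus strand, GRCm38), had 209, 177 and 209 FPKM in sham, 194, 124 and 151 FPKM in resection and 636, 333 and 856 FPKM in vagotomy libraries. All 3 vagotomy libraries were above all other libraries. It was 3.66-fold higher than after resection (log2 change 1.87 ± 0.36 SE, adjusted p = 0.0306) and 2.85-fold higher than in sham (1.51 ± 0.36, adjusted p = 0.0313). Sdhd, the other anchor, had 308, 309 and 311 FPKM in vagotomy and 339, 326 and 309 FPKM in resection libraries, a log2 change of -0.07 ± 0.25 with an adjusted p of 0.901. The catalytic flavoprotein Sdha and the iron-sulfur subunit Sdhb gave 0.14 ± 0.39 and 0.58 ± 0.42 against resection (adjusted p 0.863 and 0.431, limma). Against sham they gave -0.03 ± 0.39 and 0.51 ± 0.42 (adjusted p 0.967 and 0.448, limma). Sdhd had 377, 406 and 463 FPKM in sham, above all 3 vagotomy libraries (-0.42 ± 0.25, adjusted p = 0.286, limma).

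In complex III, 2 of 9 members fell against sham and 0 passed against resection. Cyc1, the heme-bearing cytochrome c1 (chromosome 15, 76343523 to 76346260, plus strand), had 539, 359 and 389 FPKM in sham, 461, 248 and 322 FPKM in resection and 166, 187 and 161 FPKM in vagotomy libraries. The vagotomy libraries were below all others, and the level was 2.46-fold lower than in sham (log2 change -1.30 ± 0.31, adjusted p = 0.0308). Uqcrc2, core protein 2 (chromosome 7, 120635176 to 120659524, plus strand), had 928, 2261 and 1121 FPKM in sham, 646, 652 and 1072 FPKM in resection and 251, 371 and 506 FPKM in vagotomy libraries. Its vagotomy libraries were also the lowest, and sham library 2 was far above the other sham libraries. The level was 3.67-fold lower than in sham (-1.88 ± 0.43, adjusted p = 0.0264).

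Other subunits of complex III lay on the opposite side. Uqcrc1, core protein 1 and the partner of Uqcrc2, was named after its values were seen. It had 453, 422 and 283 FPKM in sham, 448, 159 and 534 FPKM in resection and 858, 1020 and 1046 FPKM in vagotomy libraries. These did not overlap, but the log2 changes of 1.53 ± 0.44 against resection and 1.36 ± 0.44 against sham had adjusted p of 0.0776 and 0.0739. Uqcrb, a small subunit that takes part in ubiquinone binding, had 415, 558 and 681 FPKM in vagotomy and 236, 198 and 252 FPKM in resection libraries, with no overlap and an adjusted p of 0.0501 (log2 change 1.24 ± 0.30). After the correction for GC content and length Uqcrb passed, with an adjusted p of 0.0118 (0.0118 to 0.163 over 22 alternatives).

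Cycs, the cytochrome c that carries electrons from complex III to complex IV (chromosome 6, 50562563 to 50566538, minus strand), had 49.7, 91.4 and 106 FPKM in sham, 38.7, 54.3 and 54.9 FPKM in resection and 120, 167 and 206 FPKM in vagotomy libraries. All vagotomy libraries were above all others. It was 3.25-fold higher than after resection (log2 change 1.70 ± 0.34, adjusted p = 0.0337), and the log2 change of 1.02 ± 0.34 against sham had an adjusted p of 0.0796. Cyc1, which hands electrons to cytochrome c, lay in the opposite direction.

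In complex IV, Cox6b1 rose, Cox6c fell in both comparisons with the vagotomy group, and Cox7a1 and Cox7a2l fell against sham. Cox6b1 (chromosome 7, 30616861 to 30626151, minus strand) had 1409, 1218 and 1087 FPKM in sham, 1415, 610 and 912 FPKM in resection and 4182, 3325 and 3150 FPKM in vagotomy libraries. The lowest vagotomy library was above the highest of the others by more than their whole range. It was 3.81-fold higher than after resection (log2 change 1.93 ± 0.37, adjusted p = 0.0306) and 2.86-fold higher than in sham (1.52 ± 0.37, adjusted p = 0.0335). Cox6c, a small membrane subunit (chromosome 15, 35925886 to 35938246, minus strand), had 693, 606 and 719 FPKM in sham, 775, 583 and 620 FPKM in resection and 246, 264 and 300 FPKM in vagotomy libraries. Sham and resection overlapped and the vagotomy libraries were apart from both. It was 2.43-fold lower than after resection (-1.28 ± 0.27, adjusted p = 0.0361) and 2.49-fold lower than in sham (-1.32 ± 0.27, adjusted p = 0.0193).

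Cox7a1 (chromosome 7, 30184144 to 30186078, plus strand) had 326, 187 and 244 FPKM in sham, 217, 122 and 82.9 FPKM in resection and 91.4, 79.4 and 18.8 FPKM in vagotomy libraries. Vagotomy and sham did not overlap, resection overlapped both, and vagotomy library 3 was the lowest of all. It was 4.68-fold lower than in sham (log2 change -2.23 ± 0.57, adjusted p = 0.0374). Cox7a2l, which joins complexes III and IV into supercomplexes (chromosome 17, 83501918 to 83517330, minus strand), had 176, 122 and 160 FPKM in sham, 102, 125 and 89.7 FPKM in resection and 61.8, 57.4 and 93.2 FPKM in vagotomy libraries. Vagotomy and sham did not overlap, and resection overlapped both. It was 2.17-fold lower than in sham (-1.12 ± 0.29, adjusted p = 0.0378). Of the complex IV members, 12 of 16 tested had a lower mean than in sham, as did 48.0% of all genes, and the median log2 change was -0.67.

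In complex V, Atp5o rose against resection, and Atp5j and Atp5s fell against sham. Atp5o, which encodes the oligomycin sensitivity conferring protein at the top of the peripheral stalk (chromosome 16, 91925214 to 91931687, minus strand), had 950, 1334 and 1125 FPKM in sham, 880, 520 and 782 FPKM in resection and 2160, 1949 and 2262 FPKM in vagotomy libraries. The vagotomy libraries were above all others, and resection was below sham without overlap. It was 2.98-fold higher than after resection (log2 change 1.58 ± 0.33, adjusted p = 0.0349), and 0.91 ± 0.33 against sham had an adjusted p of 0.0938. Atp5j, coupling factor 6 of the same stalk (chromosome 16, 84827866 to 84835625, minus strand), had 511, 660 and 687 FPKM in sham, 449, 504 and 313 FPKM in resection and 226, 292 and 222 FPKM in vagotomy libraries. The 3 groups of Atp5j did not overlap, and the vagotomy group was 2.50-fold lower than sham (-1.32 ± 0.30, adjusted p = 0.0263). Atp5s was a low transcript, with 15.8, 24.1 and 22.6 FPKM in sham, 13.6, 22.4 and 14.1 FPKM in resection and 8.20, 9.91 and 7.78 FPKM in vagotomy libraries. The vagotomy libraries were the lowest, and sham and resection overlapped. It was 2.24-fold lower than in sham (-1.17 ± 0.27, adjusted p = 0.0281).

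The catalytic core and the c subunit of complex V did not pass. Atp5b had 3370, 4169 and 4081 FPKM in vagotomy libraries, which overlapped resection (3606, 3089 and 3204 FPKM), with a log2 change of 0.23 ± 0.33. The 3 genes Atp5g1, Atp5g2 and Atp5g3 encode the same mature c subunit behind different import sequences. Against sham their log2 changes in the vagotomy group were -0.64 ± 0.37, 0.32 ± 0.47 and -0.98 ± 0.40, with adjusted p of 0.267, 0.692 and 0.134. Atp5g3 had 2567, 2519 and 4199 FPKM in vagotomy libraries, all below the sham libraries given above. Atp5h, the d subunit of the peripheral stalk, was named after its values were seen: it had 333, 444 and 1194 FPKM in vagotomy libraries against 157 to 246 FPKM in resection and 172 to 228 FPKM in sham libraries, and did not pass (adjusted p = 0.0744 against resection).

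**Figure D3:**
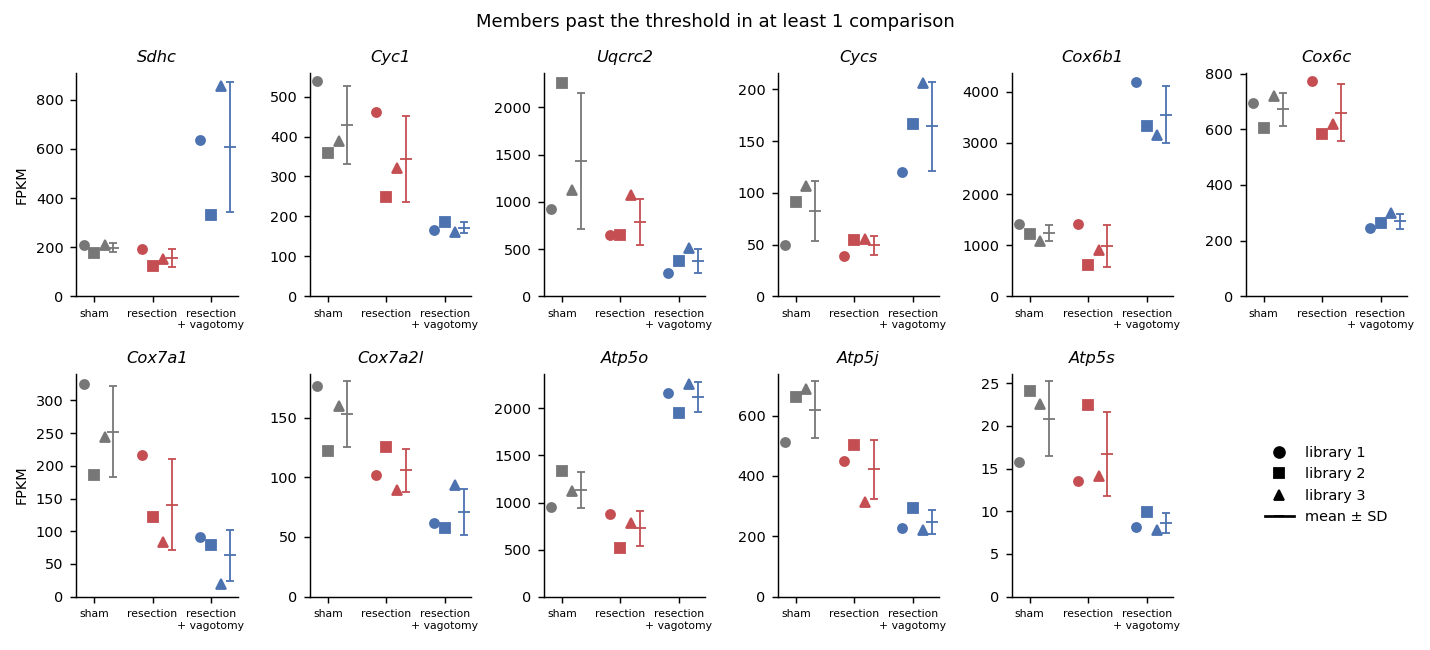
FPKM of the 11 members past the threshold in at least 1 comparison, by group; symbols are libraries and bars are mean ± SD of 3 libraries, with each vertical axis starting at 0. Sdhc, Cycs, Cox6b1 and Atp5o are highest in the 3 vagotomy libraries (for Cox6b1 3150 to 4182 FPKM), and the other 7 members are at their lowest mean there.

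Within complexes III, IV and V some subunits thus lay on opposite sides in the vagotomy libraries. In complex II Sdhc rose while Sdhd stayed near its resection level (log2 change -0.07), and Cycs is not a subunit of complex III. To show this within each library, ratios of FPKM were taken for 5 pairs picked with their values in view, so the ratios are a description with no test. Uqcrc1 over Uqcrc2, the 2 core proteins, was 0.187 to 0.488 in sham, 0.244 to 0.693 in resection and 2.07 to 3.42 in vagotomy libraries. Cycs over Cyc1 was 0.0921 to 0.274, 0.0839 to 0.219 and 0.720 to 1.28 in the same order. Cox6b1 over Cox6c was 1.51 to 2.03, 1.05 to 1.83 and 10.5 to 17.0. Atp5o over Atp5j was 1.64 to 2.02, 1.03 to 2.50 and 6.66 to 10.2, and Sdhc over Sdhd was 0.437 to 0.554, 0.382 to 0.572 and 1.08 to 2.75. In all 5 pairs sham and resection overlapped and the 3 vagotomy libraries stood apart, an outcome that the way of picking the pairs favoured.

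**Figure D4:**
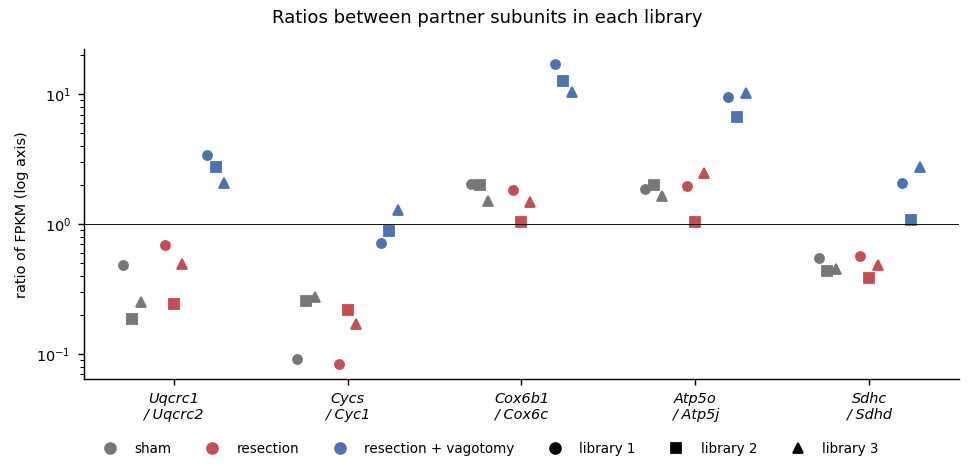
Ratio of FPKM (log axis) of 5 pairs of members in each library. Cycs with Cyc1 pairs cytochrome c with a complex III subunit, and the other pairs lie within a complex. Colours are groups and symbols are libraries, and the pairs were picked with their values in view. The vagotomy libraries lie above sham and resection in each pair, for Cox6b1 over Cox6c at 10.5 to 17.0 against 1.05 to 2.03.

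Complex IV has tissue-restricted subunit isoforms, whose balance with the ubiquitous form was compared as a log2 ratio in 4 pairs and 3 comparisons (12 in all). With 3 libraries against 3 the exact permutation test (two-sided) cannot give a p below 0.1, and no adjusted p was below 0.48. Cox7a1 over Cox7a2 (heart and muscle form over ubiquitous form) was 0.09 ± 0.50 in sham, -0.53 ± 0.51 in resection and -0.61 ± 0.73 in vagotomy libraries (mean ± SD). Cox8b over Cox8a was -0.89 ± 0.36, -1.78 ± 0.79 and -1.76 ± 0.58, and Cox6a2 over Cox6a1 was -1.32 ± 0.50, -1.21 ± 1.35 and -1.76 ± 0.13. The groups overlapped in these 3 pairs. Cox4i2, the oxygen-regulated form known from lung, over Cox4i1 was -6.16 ± 0.23, -5.96 ± 0.44 and -7.08 ± 0.13. The 3 vagotomy libraries were below all others, with an exact permutation p of 0.1 against each group and an adjusted p of 0.48. Cox4i2 was at 3.52 to 14.5 FPKM, where the added pseudocount of 1 draws ratios toward 0.

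**Figure D5:**
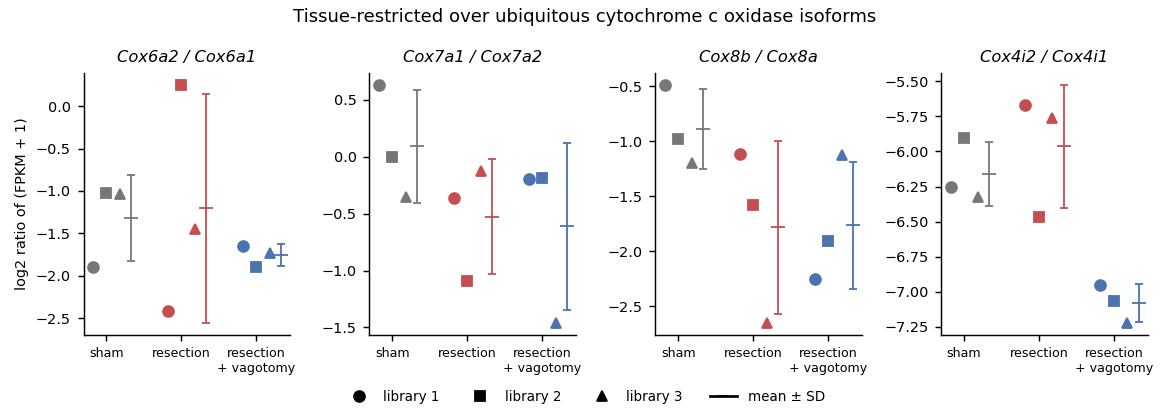
Log2 ratio of (FPKM + 1) of the tissue-restricted over the ubiquitous isoform of 4 complex IV subunits in each library, with mean ± SD of 3 libraries. Cox4i2 over Cox4i1 is the pair whose vagotomy libraries (mean -7.08) lie apart from sham and resection, and the other pairs overlap.

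Each deposited FPKM belongs to a gene, and the authors' gene table gives a locus beside it. For 15 of the 48 members the same locus is given for other genes, 14 of them with another gene of the matrix. Genes of a shared locus have separate values: over the 9 libraries Gabpa had 15.2 to 45.9 FPKM and Atp5j, at the same locus, 222 to 687 FPKM. The most extreme was Cox4i1, whose deposited locus was shared by 183 genes and was 741 times as long as the gene. The Atp5o locus held 10 genes, among them Son, Itsn1 and Donson, the Cox6c locus 5, among them Vps13b, and the Uqcrb locus 4. The Atp5j locus held Gabpa, the Uqcrc2 locus Pdzd9, the Atp5d locus Dos and Stk11, the Atp5f1 locus Ovgp1 and Wdr77, the Cox5a locus Fam219b and Gm26631, and the Cox6a2 locus Itgad. The Sdha, Uqcrh, Cox7c, Atp5b and Atp5c1 loci held small RNAs, pseudogenes or unnamed gene models. How the authors' program split reads among the genes of a locus is not given in the sources used here, so values at these loci are uncertain.

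Of the 15 tested members at shared loci, 13.3% passed against resection and 20% against sham. Of the 32 alone in their locus, 9.38% and 18.8% passed. Of the 5 members called against resection, Cox6c and Atp5o lay at shared loci and Sdhc, Cycs and Cox6b1 did not. Of the 9 called against sham, Uqcrc2, Cox6c and Atp5j did, and the other 6 were alone in their locus. Over the members alone in their locus the median log2 change was -0.38 for resection against sham (32 of 32 lower), 0.05 for vagotomy with resection against resection and -0.43 against sham. Over the members at shared loci it was -0.34, 0.14 and -0.10 in the same order. Processed pseudogene copies can also take or give reads: 19 members had at least 1 annotated pseudogene with 90% identity or more over at least 80% of its length. Atp5l had 16, Cycs 8, and Atp5g1 and Atp5h 6 each. Among the calls against resection, Cycs, Cox6c and Atp5o had such copies, and Sdhc and Cox6b1 had 0.

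The change of a member was weakly related to the properties examined, given as Spearman rho over the 47 members and without a test. Against GC content rho was -0.004 for resection against sham, 0.186 for vagotomy with resection against resection and 0.152 against sham, where all 13118 genes with a value gave 0.159, 0.354 and 0.381. Against mean level the members gave 0.071, 0.096 and 0.110, and against transcript length 0.163, -0.049 and 0.054. After the correction, Cox6b1 gave a log2 change of 1.90 against resection (adjusted p = 0.0118, and 0.0114 to 0.122 over 22 alternatives). Cycs gave 2.06 (adjusted p = 0.00389, over the alternatives to 0.110) and Cyc1 gave -1.41 (adjusted p = 0.0129, over the alternatives to 0.198).

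Other genes of mitochondrial respiration were taken from lists. Over all tested genes, 3.52% passed in the vagotomy group against resection and 10.1% against sham. Among genes at 100 FPKM or more these shares were 9.14% and 17.6%. Of the 36 subunits of complex I, 1 rose and 3 fell in the vagotomy group against resection, and 1 rose and 7 fell against sham, with a median log2 change of 0.22 and 0.08. Ndufb3 rose in both (log2 change 2.41 and 2.06, adjusted p = 0.00501 and 0.00568), and Ndufb2, Ndufb6 and Ndufs3 were the 3 that fell against resection. Their log2 changes against resection had an SD of 1.11, beside 0.88 for the members. Of 38 tested assembly factors of complexes II to V, 35 had a lower mean after resection (median log2 change -0.29), against 51.3% of all genes. Of these factors 0 passed after resection, where 0.294% of all tested genes did. In the vagotomy group Cmc2 rose and Atpaf1 and 2010107E04Rik fell against resection, and Atpaf1, 2010107E04Rik, Coa6 and Fastkd5 fell against sham. Atpaf1, which helps to assemble the catalytic head of ATP synthase, fell from 26.7, 47.7 and 31.2 FPKM in resection to 9.02, 12.7 and 9.25 FPKM in vagotomy libraries (log2 change -1.65 ± 0.34, adjusted p = 0.0349). The fall of 2010107E04Rik, a small proteolipid found with ATP synthase, was larger in FPKM, from 712, 810 and 361 to 219, 197 and 141 (-1.69 ± 0.36, adjusted p = 0.0362). Cmc2, a twin-cysteine protein tied to complex IV assembly, rose to 31.3, 36.1 and 61.1 FPKM from 13.1, 10.4 and 22.9 FPKM (1.42 ± 0.33, adjusted p = 0.0463). Coa6, a copper-delivery factor of complex IV, fell against sham (-1.69 ± 0.42, adjusted p = 0.0335).

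Of 18 tested regulators of mitochondrial biogenesis, 0 passed after resection or against resection, where 0.294% and 3.52% of all tested genes did. In the vagotomy group 1 fell against sham, where 10.1% of all tested genes passed. This was Yy1, a zinc finger transcription factor, with 27.3, 28.4 and 34.6 FPKM in sham and 12.4, 15.8 and 13.1 FPKM in vagotomy libraries (log2 change -1.08 ± 0.29, adjusted p = 0.0450). Tfam, the packaging and transcription factor of mitochondrial DNA, had 24.5, 40.6 and 24.7 FPKM in sham and 36.9, 55.4 and 118 FPKM in vagotomy libraries, with overlap and an adjusted p of 0.186. Ppargc1a, a coactivator of biogenesis, gave a log2 change of -0.25 ± 0.43 (adjusted p = 0.741). Polrmt had 16.3, 17.0 and 24.4 FPKM in vagotomy libraries, above all sham (5.83 to 13.3) and resection libraries (6.51 to 11.5). It did not pass against sham (1.14 ± 0.33, adjusted p = 0.0539, limma), nor did Esrrb against resection (0.92 ± 0.29, adjusted p = 0.0976, limma). Against sham 7 of the 18 regulators had a lower mean, beside 48.0% of all genes, and 11 a higher one. Among 7 cristae organisers, Minos1 and Apoo of the MICOS complex fell against sham (-1.94 ± 0.38 and -1.52 ± 0.34, adjusted p = 0.0166 and 0.0264). Among 7 carriers and creatine shuttle genes Vdac3, an outer membrane channel, fell against sham (-1.24 ± 0.29, adjusted p = 0.0285), and Slc25a4, the heart form of the ADP/ATP carrier, did not pass (0.16 ± 0.31, adjusted p = 0.770).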

How the data were processed

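Total RNA of the apical ventricle was sequenced on an Illumina instrument, per the labels. The authors deposited FPKM with a pseudocount of 1 added, which was subtracted here, and Cuffdiff tables with group FPKM, p-values and q-values per the file headers. TopHat2 2.0.9, Cufflinks 2.1.1, Cuffdiff 2.1.1 and GRCm38 are named in the submitters' processing notes. No read counts were used, so sequencing depth and counting error are unknown. FPKM were analysed as log2(FPKM + 1), a scale that understates changes of low genes, in R 4.3.3 by limma 3.58.1. The fit took the 9 libraries together, with a mean for each group and trended moderation of variances, tests were two-sided, and p-values were adjusted by the Benjamini-Hochberg method over the 13249 genes that averaged 1 FPKM or more (threshold 0.05). Log2 changes are given with their standard error, and fold changes are on the same scale. The fit was tested on simulated data. Member positions, lengths, GC content and pseudogenes came from GENCODE M21 (GRCm38) and promoters from RefSeq (GRCm38.p6). Named members were those past the threshold in any comparison, in each complex those with the smallest F-test p, the highest and the lowest levels, and the isoform families. Members and lists were chosen with earlier results of these data known. Alternatives were other pseudocounts, filters, scalings, moderation and fits, the replicate number as a block, the authors' Cuffdiff q-values, and leaving out each library. Correction of each library for its trend on GC content and length, protein-coding genes only, library weights and members alone in their locus were added after seeing the data.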

Additional observations from a re-analysis of the deposited data

How the results depend on the processing

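FPKM hide the depth behind each value, 3 libraries per group limit precision, and the counts of calls depended on the settings more than the log2 changes did. Over 22 alternatives and 87 combinations of named member and comparison, 1792 of 1914 values kept their side of the threshold. Of the rest, 87 lost a call and 35 gained one, and no called change switched sign. Most of these combinations had no call to lose. The 5 calls against resection passed in 12 (Cox6c) to 15 (Sdhc) of the 22 alternatives. The 9 calls against sham passed in 16 (Cyc1, Cox6b1 and Cox7a1) to 18 (Uqcrc2, Cox6c and Atp5j). Members called for resection against sham (0) became 6 in the authors' deposited Cuffdiff table and 1 with library weights, and stayed at 0 to 0 when each library was left out. Against resection (5) they became 18 in the authors' deposited table, 0 in the fit to the 6 libraries, 9 without the GC and length trend and 3 over members alone in their locus, and 0 to 4 when each library was left out. Against sham (9) they became 14 without the GC and length trend and 25 with library weights, and 0 to 10 on leaving out libraries.

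Over all genes, calls for resection against sham (39) became 857 in the authors' deposited table, 13 in the 6-library fit, 93 without the GC and length trend, 417 with library weights, 86 for protein-coding genes, 66 and 23 with pseudocounts of 0.1 and 5, and 74 with robust moderation, and 11 to 59 on leaving out libraries. Against resection (466) they became 2406, 29, 1334 and 887 under the first 4 of these, and 42 to 591 on leaving out libraries. Against sham (1334) they became 2287 without the trend and 6389 with weights, and 100 to 1701 on leaving out libraries. The median member change ranged over left-out libraries from -0.58 to -0.29, from -0.09 to 0.29 and from -0.55 to -0.27 in the 3 comparisons (the second was -0.094 without resection replicate 3), and the last was -0.11 with library weights. The causes were not tested.

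The labels do not tie same-numbered libraries to a litter or day, and the data gave a hint of pairing that did not hold for every library. Deviations of same-numbered libraries correlated at 0.14 to 0.50 for numbers 1 and 2 and at -0.02 to 0.12 for number 3. In all, 7 of 9 libraries correlated best with their own number. Resection library 2 and sham library 3 correlated best with each other (0.34). Not every pair exceeded 0.1, so the block was kept as an alternative. With the replicate number as a block, 9 members and 1277 genes passed against resection, 14 members and 2413 genes against sham, and 0 members after resection.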
